A study of Homo sapiens with 6 samples.

Results

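The genes described here are 52 DNA damage checkpoint and repair genes, taken by symbol from a deposited RNA-seq table of 13439 genes in which all 52 were listed with a mean of at least 1 CPM (reads of the gene scaled to library size). They were divided by textbook role into checkpoint signalling (8 genes), homologous recombination (16), the Fanconi anemia pathway (10), end joining (5), mismatch repair (2), base excision and single-strand break repair (5) and nucleotide excision repair (4), with the chromatin pair ATRX and DAXX kept apart. The groups were 3 samples given AIL (ailanthone, a quassinoid of the tree Ailanthus altissima) at 0.20 µM, stated as its IC50, for 24 h, and 3 samples given DMSO for the same time. All 6 were labelled Saos-2, an established human osteosarcoma line, and no other genotype, vector or agent was stated. The labels call the 3 samples of a group biological replicates and do not say whether cultures were separate, and every p-value measures only how far these samples spread. Scaled depth was 35910000 to 38050000 reads in the AIL samples and 32540000 to 35830000 reads in the DMSO samples, so that 1 read was worth 0.0263 to 0.0307 CPM. Values written with ± are means with the SD (n = 3 samples a group). CPM are not divided by transcript length. They are compared between the groups within a gene, or as a ratio of partner genes or a sum over a list of genes.

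The label was checked against markers of bone-forming cells. RUNX2, an osteoblast transcription factor, had 4.36 to 5.04 CPM over the 6 samples. SPP1, BGLAP and SPARC, which encode bone matrix proteins, were at or below 0.28 CPM in every sample, and SP7, ALPL, IBSP and COL1A1 were not analysed here. Of 6 markers of other cell types, MBP had 28.3 to 31.0 CPM and the other 5 were not analysed here. TERT, the catalytic subunit of telomerase, had 7.8 to 9.7 CPM, although Saos-2 is known as a line that maintains its telomeres without telomerase. TERT was chosen after its values were seen. The osteoblast markers that were measured are thus mostly near 0 in cells labelled Saos-2, and the identity of the line was not tested.

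DNA damage is read by kinases that halt the cell cycle, of which ATM answers chiefly to double-strand breaks and ATR to single-stranded DNA at stalled replication forks. Breaks are then mended either by homologous recombination, which copies the sister chromatid and works in S and G2 phase, or by end joining, which ligates the ends throughout the cycle. The Fanconi anemia pathway unhooks crosslinks between the DNA strands, and excision pathways replace damaged bases or short single-stranded stretches. Many genes of recombination and of the Fanconi pathway are known to be transcribed mostly in cycling cells.

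Checkpoint, recombination and Fanconi genes were mostly lower under AIL, while ATRX, DAXX and 4 of 5 end joining genes were higher. The end joining rises dropped to 1, PRKDC, with quantile normalization, and 0 of 8 other tested end joining genes rose. Of 11 other Fanconi genes, 2 fell and 2 rose, while 9 of 17 other checkpoint genes and 10 of 22 other recombination genes fell. Of the 52 genes, 26 fell, 10 rose and 16 did not pass a limma adjusted p under 0.05 over all 11069 genes tested. The 52 genes were chosen with earlier results of these data known, and no test compares them with all genes. Among all tested genes, 25.9% fell and 28.2% rose, 54.1% in all, against 50%, 19.2% and 69.2% of these 52. Their median log2 difference (AIL minus DMSO, after adding 1 to each CPM) was -0.098, and that of all tested genes was 0.008. The values of the 3 AIL samples did not overlap those of the 3 DMSO samples for 40 of the 52 genes, against 60.1% of all tested genes. Changes were small: the 36 called genes differed in mean CPM by 5.90 to 38.7%, and 2 of them, FANCD2 and ERCC4, by at least 0.4 on the log2 scale, which is 5.6% of these against 12.3% of all 5991 called genes. Of the 36 calls, 28 held under each of 14 alternative analyses.

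**Figure D1:**
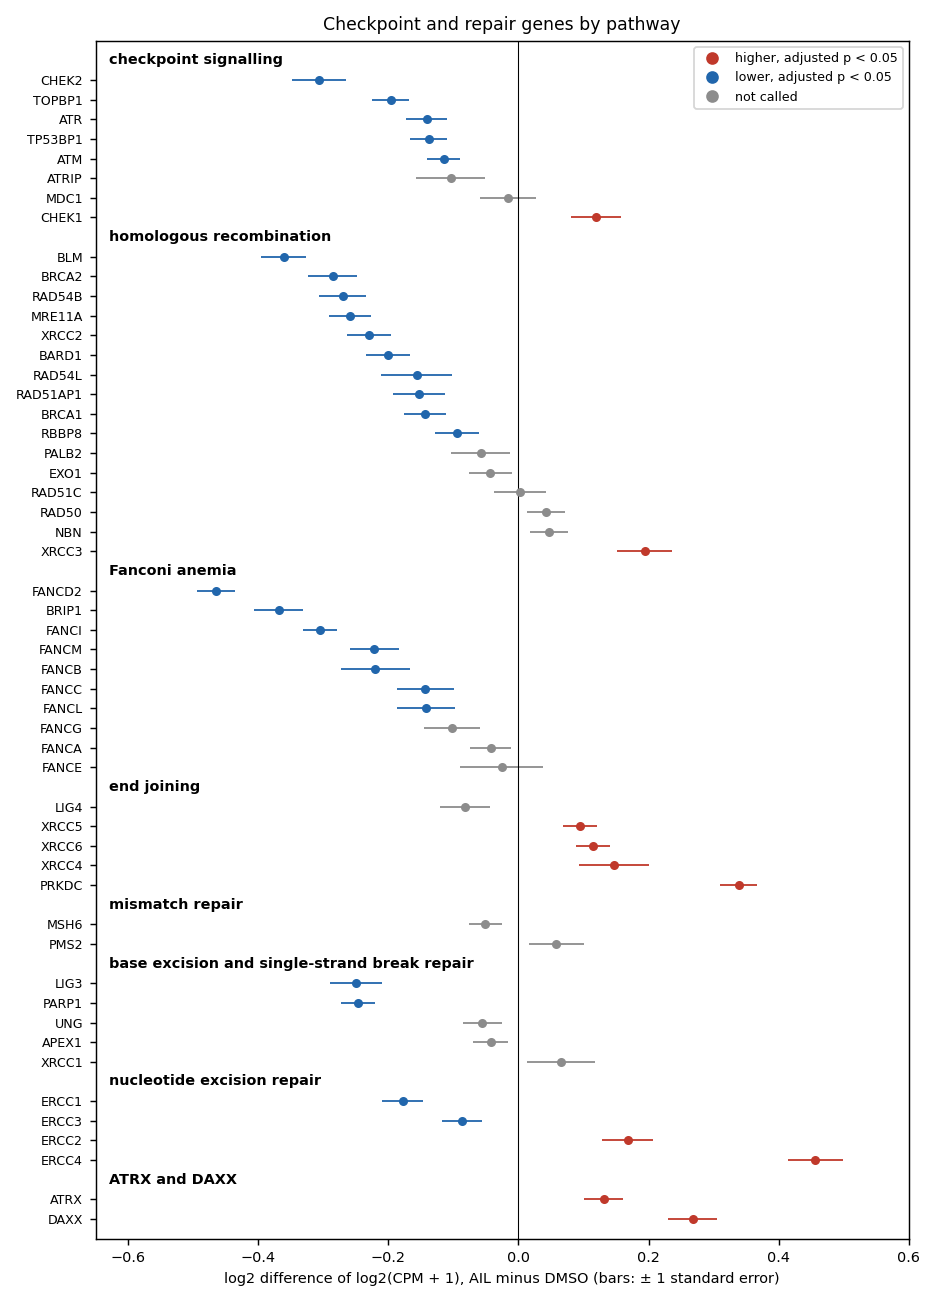
Log2 difference of log2(CPM + 1), AIL minus DMSO, for each of the 52 genes (points, with bars of 1 standard error), grouped by pathway and coloured by call. All 10 Fanconi genes lie left of 0, from -0.46 for FANCD2 to -0.026 for FANCE, and 4 of 5 end joining genes lie right of it (XRCC5 lies left with quantile normalization, and FANCE right without AIL replicate 3 or DMSO replicate 2).

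Promoters of FANCD2 and BRIP1, the 2 greatest falls, and of ERCC4 and XRCC3, from among the greatest rises, are shown. These are the 2 greatest falls and 2 greatest rises among genes with a single matched RefSeq entry. PRKDC and DAXX, which rose less than ERCC4 and more than XRCC3, had no matched RefSeq entry and are not shown. Each line is the 250 bases before the start site on the strand of the gene, from RefSeq on GRCh38.p14. Capitals mark whole matches of any searched motif, on either strand: the E2F-type words TTTCCCGC, TTTCGCGC, TTTGCCGC and TTTGGCGC, the CHR words TTTGAA and TTCGAA, the CCAAT box CCAAT and the GC box GGGCGG.
FANCD2: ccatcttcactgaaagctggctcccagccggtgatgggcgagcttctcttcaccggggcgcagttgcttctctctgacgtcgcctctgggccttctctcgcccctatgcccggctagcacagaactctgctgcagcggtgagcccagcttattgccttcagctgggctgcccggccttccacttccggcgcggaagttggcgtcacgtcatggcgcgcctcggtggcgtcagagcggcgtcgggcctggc
BRIP1: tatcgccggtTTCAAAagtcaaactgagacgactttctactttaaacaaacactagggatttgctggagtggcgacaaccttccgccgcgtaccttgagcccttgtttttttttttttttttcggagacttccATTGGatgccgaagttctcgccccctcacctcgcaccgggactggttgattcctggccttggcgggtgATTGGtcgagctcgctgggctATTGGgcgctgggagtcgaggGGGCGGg
ERCC4: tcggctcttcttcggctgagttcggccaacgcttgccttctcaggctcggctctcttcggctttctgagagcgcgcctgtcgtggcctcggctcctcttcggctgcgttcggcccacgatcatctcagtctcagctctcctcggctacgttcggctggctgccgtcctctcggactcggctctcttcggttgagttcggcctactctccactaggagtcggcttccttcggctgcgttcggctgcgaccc
XRCC3: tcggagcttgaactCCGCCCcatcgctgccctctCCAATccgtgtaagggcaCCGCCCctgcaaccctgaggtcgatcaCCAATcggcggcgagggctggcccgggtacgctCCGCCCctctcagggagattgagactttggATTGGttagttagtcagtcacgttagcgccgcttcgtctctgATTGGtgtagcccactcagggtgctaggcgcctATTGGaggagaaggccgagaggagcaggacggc

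FANCD2 lies at chr3:10026187-10026436 (plus strand), BRIP1 at chr17:61863529-61863778 (minus strand), ERCC4 at chr16:13919904-13920153 (plus strand) and XRCC3 at chr14:103715452-103715701 (minus strand). The FANCD2 window shows no capitals, since its E2F-type word runs across the start site, from 2 bases before it to base 6 after it. The BRIP1 window holds 1 CHR word, 3 CCAAT boxes and 1 GC box, that of XRCC3 holds 5 CCAAT boxes and 3 GC boxes, and that of ERCC4 holds none of the motifs. Over the 300 bases from 250 before to 50 after each start, 45 of the 52 genes matched RefSeq entries, with 66 windows. An E2F-type word was in 16.7% of these windows, against 5.2% of 12421 windows of tested genes and 3.3% of all 35116 windows. It was in 4 of 31 windows (12.9%) of genes that fell, 1 of 8 (12.5%) of those that rose and 6 of 27 (22.2%) of those not called. Some genes have several windows, each counted. CHR words were in 10.6% of the 66 windows, against 11.6% of those of tested genes and 16.4% of all. CCAAT boxes were in 51.5%, against 35.1% and 34.6%, and GC boxes in 72.7%, against 67.6% and 45%. These are matches of letters, with no test.

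Among the 8 checkpoint genes, 5 fell, CHEK1 rose and 2 did not pass the test. CHEK2 encodes the kinase that ATM activates, and it had 31.8, 29.6 and 32.1 CPM in the AIL samples, against 39, 38.4 and 39 CPM in the DMSO samples. All 3 AIL samples lay below all DMSO samples (log2 difference -0.31, SE 0.0416, limma adjusted p = 8.44e-06). CHEK1, the kinase downstream of ATR, went the other way, with 44.3, 45.1 and 48 CPM in the AIL samples, against 42, 41.6 and 42.5 CPM in the DMSO samples. The groups did not overlap, and AIL replicate 3 was the highest (log2 difference 0.12, SE 0.0388, limma adjusted p = 0.0152; adjusted p = 0.0572 without AIL replicate 3 and adjusted p = 0.0561 without DMSO replicate 2).

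TOPBP1, which switches on ATR at damaged forks, had 160.0, 158 and 168 CPM in the AIL samples, against 186, 182 and 189 CPM in the DMSO samples. Each AIL sample lay below each DMSO sample (log2 difference -0.20, SE 0.0285, limma adjusted p = 1.75e-05). ATR itself had 118, 115 and 123 CPM in the AIL samples, against 128, 129.6 and 135 CPM in the DMSO samples (log2 difference -0.14, SE 0.0316, limma adjusted p = 0.00112), and its groups did not overlap either. Its partner ATRIP, which carries ATR to single-stranded DNA, had 15.3, 15 and 14.3 CPM in the AIL samples, against 16.5, 15.9 and 15.7 CPM in the DMSO samples. The AIL values were lower without overlap, but the difference was not called (log2 difference -0.10, 95% interval -0.22 to 0.008; limma adjusted p = 0.108, and adjusted p = 0.0283 with quantile normalization). In GENCODE v29, 27.9% of the exon bases of ATRIP are shared with TREX1 on the same strand, which averaged 1.65 ± 0.26 CPM under AIL and 1.71 ± 0.39 CPM under DMSO.

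TP53BP1, which protects broken ends and favours end joining, had 128, 122 and 123 CPM in the AIL samples, against 136, 136 and 139.6 CPM in the DMSO samples. The AIL values were the 3 lowest (log2 difference -0.14, SE 0.0289, limma adjusted p = 6.26e-04). TUBGCP4, which overlaps 28.7% of its exon bases on the other strand, fell too (log2 difference -0.14). ATM averaged 247 ± 3.9 CPM under AIL and 267 ± 4.23 CPM under DMSO and also fell without overlap (log2 difference -0.11, SE 0.0254, limma adjusted p = 9.91e-04). MDC1, the scaffold that gathers repair proteins at breaks, had 25.1, 25.5 and 25.9 CPM in the AIL samples, against 25.5, 25.6 and 26.1 CPM in the DMSO samples. Its groups overlapped (log2 difference -0.015, 95% interval -0.11 to 0.075; limma adjusted p = 0.783).

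In homologous recombination, 10 of 16 genes fell, XRCC3 rose and 5 did not pass. The first step is the trimming of broken ends, begun by the complex of MRE11A, RAD50 and NBN. Of these 3, only the transcript of the nuclease MRE11A was called, with 68.6, 67 and 71 CPM in the AIL samples, against 82.8, 81.3 and 83.5 CPM in the DMSO samples. All AIL values lay below all DMSO values (log2 difference -0.26, SE 0.0321, limma adjusted p = 3.19e-06). RAD50 had 137, 134 and 138 CPM in the AIL samples, against 131, 129 and 137 CPM in the DMSO samples. The highest DMSO sample lay among the AIL samples (log2 difference 0.042, 95% interval -0.020 to 0.10; limma adjusted p = 0.238). NBN had 267, 258 and 277 CPM in the AIL samples, against 255, 257 and 265 CPM in the DMSO samples, and AIL replicate 2 lay within the DMSO range (log2 difference 0.047, 95% interval -0.014 to 0.11; limma adjusted p = 0.179, and adjusted p = 0.0479 without that replicate). For RAD50, 79.7% of the exon bases are also annotated to a gene on the same strand.

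The trimming of ends, called resection, also involves RBBP8 (also called CtIP), EXO1 and the helicase BLM. BLM, which also untangles recombination intermediates, had 56.2, 56.1 and 59.5 CPM in the AIL samples, against 74.3, 72.4 and 74.7 CPM in the DMSO samples. Its AIL samples all lay well below the lowest DMSO sample (log2 difference -0.36, SE 0.0342, limma adjusted p = 1.32e-07). RBBP8 averaged 117 ± 4.69 CPM under AIL and 125 ± 4.27 CPM under DMSO (log2 difference -0.094, SE 0.0338, limma adjusted p = 0.0259) and the groups overlapped. The call was lost without AIL replicate 1 (adjusted p = 0.0592), AIL replicate 2 (adjusted p = 0.13) or DMSO replicate 3 (adjusted p = 0.141), with quantile normalization (adjusted p = 0.0795) and with no intensity trend (adjusted p = 0.102). The exonuclease gene EXO1 had 57.6, 56.8 and 58.9 CPM in the AIL samples, against 58.4, 60.4 and 59.9 CPM in the DMSO samples. AIL replicate 3 lay above the lowest DMSO sample, and the difference was not called (log2 difference -0.043, 95% interval -0.11 to 0.027; limma adjusted p = 0.289).

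BRCA1 and BARD1 form a ubiquitin ligase that promotes resection and, through PALB2, brings in BRCA2, which loads the recombinase onto DNA. BRCA2 had 81.1, 77.4 and 85.7 CPM in the AIL samples, against 98.1, 96.4 and 104 CPM in the DMSO samples. The highest AIL sample stayed below the lowest DMSO sample (log2 difference -0.29, SE 0.0378, limma adjusted p = 6.54e-06). BARD1 averaged 54.6 ± 1.22 CPM under AIL and 62.9 ± 0.76 CPM under DMSO (log2 difference -0.20, SE 0.0333, limma adjusted p = 6.92e-05) and BRCA1 103 ± 3.29 CPM under AIL and 114 ± 3.68 CPM under DMSO (log2 difference -0.14, SE 0.0326, limma adjusted p = 0.00122), both without overlap. PALB2 had 28.8, 28.7 and 30.6 CPM in the AIL samples, against 31.8, 30.4 and 29.6 CPM in the DMSO samples. AIL replicate 3 lay within the DMSO range (log2 difference -0.058, 95% interval -0.15 to 0.036; limma adjusted p = 0.285).

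The paralogs XRCC2, XRCC3 and RAD51C help to assemble the recombinase filament, and their transcripts did not move alike. XRCC2 averaged 60.9 ± 1.86 CPM under AIL and 71.6 ± 1.44 CPM under DMSO (log2 difference -0.23, SE 0.0339, limma adjusted p = 2.13e-05). XRCC3 had 45.5, 43.9 and 40.8 CPM in the AIL samples, against 38.1, 37.4 and 37.8 CPM in the DMSO samples. Its groups did not overlap, and AIL replicate 3 was the closest to DMSO (log2 difference 0.19, SE 0.0421, limma adjusted p = 8.47e-04). KLC1 overlaps 76.7% of the exon bases of XRCC3 on the other strand, and the use of strand in counting is not given in the sources used here. KLC1 averaged 106 ± 2.36 CPM under AIL and 112 ± 1.46 CPM under DMSO, a fall (limma adjusted p = 0.0197). RAD51C had 35.7, 37.1 and 38.1 CPM in the AIL samples, against 35.8, 37.6 and 37.2 CPM in the DMSO samples. The groups covered much the same range (log2 difference 0.002, 95% interval -0.083 to 0.087; limma adjusted p = 0.967).

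RAD54L, RAD54B and RAD51AP1 act with the filament as it invades the sister strand. RAD54B had 53, 51.7 and 55.6 CPM in the AIL samples, against 64.8, 63 and 66 CPM in the DMSO samples. No AIL value reached the DMSO range (log2 difference -0.27, SE 0.0361, limma adjusted p = 7.22e-06), although 59.1% of its exon bases are shared with FSBP on the same strand. RAD51AP1 averaged 41.7 ± 0.883 CPM under AIL and 46.5 ± 2.21 CPM under DMSO (log2 difference -0.15, SE 0.0404, limma adjusted p = 0.00399). RAD54L averaged 14.9 ± 0.401 CPM under AIL and 16.7 ± 0.852 CPM under DMSO (log2 difference -0.16, SE 0.0548, limma adjusted p = 0.0228; adjusted p = 0.0699 without AIL replicate 1 and adjusted p = 0.12 without DMSO replicate 2). LRRC41, which overlaps 25.1% of the RAD54L exon bases on the other strand, rose in the same comparison (log2 difference 0.47).

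**Figure D2:**
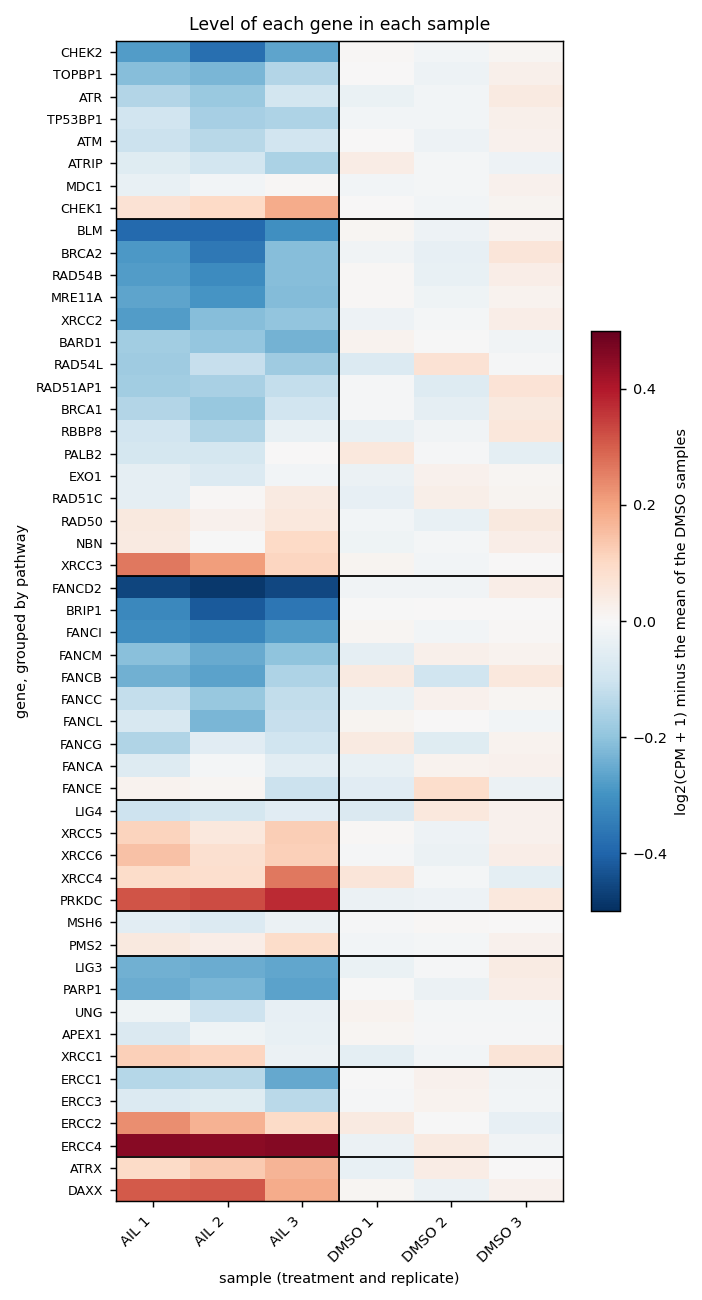
Level of each of the 52 genes (rows, grouped by pathway and separated by lines) in each sample (columns, 3 AIL and then 3 DMSO), as log2(CPM + 1) minus the mean of the DMSO samples, on a scale of -0.5 to 0.5. FANCD2, BRIP1 and BLM are low and ERCC4 and PRKDC high in all 3 AIL samples, and the DMSO samples vary little.

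Of the 10 genes of the Fanconi anemia pathway among the 52, 7 fell and 0 rose. The pathway centres on FANCD2 and FANCI, a pair of proteins that clamp onto DNA once a core complex has attached ubiquitin to them. FANCD2 had 83, 81.6 and 83.3 CPM in the AIL samples, against 113, 113 and 117 CPM in the DMSO samples, the greatest fall among the 52 genes. The AIL samples lay close together and far below all DMSO samples (log2 difference -0.46, SE 0.0291, limma adjusted p = 9.47e-10). FANCI had 153, 151 and 157 CPM in the AIL samples, against 191, 189 and 191 CPM in the DMSO samples. Here too the groups were far apart compared with the spread within them (log2 difference -0.31, SE 0.0261, limma adjusted p = 3.81e-08).

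BRIP1 (FANCJ), a helicase that works with BRCA1, had 39.6, 36.9 and 38.5 CPM in the AIL samples, against 49.7, 49.8 and 49.8 CPM in the DMSO samples. The DMSO samples were nearly equal and all AIL samples were lower (log2 difference -0.37, SE 0.0375, limma adjusted p = 3.01e-07). FANCM, which anchors the core complex on DNA, had 40.5, 39.4 and 40.7 CPM in the AIL samples, against 45.6, 47.9 and 47.7 CPM in the DMSO samples. All its AIL values were below the DMSO values (log2 difference -0.22, SE 0.0372, limma adjusted p = 7.94e-05).

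The genes of the core complex among the 52 follow. FANCB averaged 20.9 ± 0.911 CPM under AIL and 24.6 ± 1.52 CPM under DMSO (log2 difference -0.22, SE 0.0531, limma adjusted p = 0.00201), FANCC 24.4 ± 0.676 CPM under AIL and 27.1 ± 0.537 CPM under DMSO (log2 difference -0.14, SE 0.0442, limma adjusted p = 0.0112), and FANCL, the ubiquitin ligase subunit, 30.6 ± 1.64 CPM under AIL and 33.8 ± 0.329 CPM under DMSO (log2 difference -0.14, SE 0.0445, limma adjusted p = 0.0124; adjusted p = 0.0734 without AIL replicate 2). FANCG had 33.7, 36 and 34.9 CPM in the AIL samples, against 38.7, 35.9 and 38 CPM in the DMSO samples. The highest AIL sample just passed the lowest DMSO sample, and the test lay at the threshold (log2 difference -0.10, SE 0.0423, limma adjusted p = 0.0505; adjusted p = 0.0423 with the replicate number as a block). FANCG was also called lower with a pseudocount of 0.1 (adjusted p = 0.0496), a minimum mean of 5 CPM (0.046), median-of-ratios scaling (0.0385) and quantile normalization (0.0355). The same held without AIL replicate 2 (0.037), AIL replicate 3 (0.0485) or DMSO replicate 2 (0.0301). FANCA had 83.6, 87.1 and 84.3 CPM in the AIL samples, against 85.2, 88.7 and 88.8 CPM in the DMSO samples, with overlap (log2 difference -0.043, 95% interval -0.11 to 0.023; limma adjusted p = 0.259), and ZNF276, which overlaps 23.6% of its exon bases on the other strand, rose (log2 difference 0.11). FANCE had 10.8, 10.7 and 9.83 CPM in the AIL samples, against 10.2, 11.4 and 10.4 CPM in the DMSO samples, also with overlap (log2 difference -0.026, 95% interval -0.16 to 0.11; limma adjusted p = 0.754). The called falls among FANCB, FANCC and FANCL were thus -0.22, -0.14 and -0.14, and those of FANCD2 and FANCI -0.46 and -0.31. The core genes did not all fall: FANCA, FANCE and FANCG were not called, and FANCF, a core gene outside the 52, rose (log2 difference 0.42). The gap between core and clamp genes was not tested.

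In end joining, 4 of 5 genes rose and 0 fell (with quantile normalization PRKDC alone was called and XRCC5 turned to -0.039). PRKDC encodes the kinase DNA-PKcs, which the Ku proteins recruit to broken ends, and it had 1508, 1516 and 1570.0 CPM in the AIL samples, against 1187, 1190.4 and 1257 CPM in the DMSO samples. Every AIL value lay far above every DMSO value (log2 difference 0.34, SE 0.028, limma adjusted p = 2.58e-08). Ku itself is the pair XRCC6 and XRCC5. XRCC6 had 743, 708 and 728 CPM in the AIL samples, against 668, 657 and 686 CPM in the DMSO samples (log2 difference 0.12, SE 0.0262, limma adjusted p = 0.00128; adjusted p = 0.656 with quantile normalization). XRCC5 had 875, 840.5 and 882 CPM in the AIL samples, against 815, 796 and 822 CPM in the DMSO samples (log2 difference 0.095, SE 0.0259, limma adjusted p = 0.00517). Neither pair of groups overlapped, but the rise was 8.31 and 6.80% of mean CPM, and 13.5% of the 50-base words of XRCC6 occur in other genes, mainly its pseudogenes.

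XRCC4 and LIG4 make up the ligase that seals the ends. XRCC4 had 23.8, 23.7 and 26.9 CPM in the AIL samples, against 23.3, 22.1 and 21.5 CPM in the DMSO samples. AIL replicate 3 stood above the other 2 AIL samples, which were just above the highest DMSO sample (log2 difference 0.15, SE 0.0542, limma adjusted p = 0.030). The call was lost with no filter on low values (adjusted p = 0.0563), quantile normalization (adjusted p = 0.0749) or no intensity trend (adjusted p = 0.0636), and without AIL replicate 3 (adjusted p = 0.143), DMSO replicate 2 (adjusted p = 0.0776) or DMSO replicate 3 (adjusted p = 0.109). LIG4 had 48.5, 48.9 and 50.1 CPM in the AIL samples, against 49.5, 54.1 and 52.9 CPM in the DMSO samples. AIL replicate 3 lay above the lowest DMSO sample (log2 difference -0.083, SE 0.0385, limma adjusted p = 0.0794; adjusted p = 0.0408 with the replicate number as a block). LIG4 was also called lower without AIL replicate 3 (adjusted p = 0.0382) and without DMSO replicate 1 (adjusted p = 0.0237).

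Neither mismatch repair gene was called. MSH6, part of a complex that binds mismatches, had 154, 152 and 156 CPM in the AIL samples, against 159, 160.2 and 159.7 CPM in the DMSO samples. The groups did not overlap but lay close together (log2 difference -0.051, 95% interval -0.11 to 0.004; limma adjusted p = 0.111). PMS2, which nicks the strand to be replaced, had 27.1, 26.8 and 28 CPM in the AIL samples, against 26, 26 and 26.6 CPM in the DMSO samples. Its AIL values were slightly higher without overlap (log2 difference 0.058, 95% interval -0.032 to 0.15; limma adjusted p = 0.263). Of its 50-base words 23.0% occur in other genes, mainly its pseudogenes, so its value is uncertain to that extent.

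Among the 5 genes of base excision and single-strand break repair, 2 fell and 0 rose. PARP1, the sensor of nicks that marks them with ADP-ribose chains, had 242, 246 and 239 CPM in the AIL samples, against 287, 282 and 294 CPM in the DMSO samples. Every AIL sample lay well below the DMSO samples (log2 difference -0.25, SE 0.0257, limma adjusted p = 3.96e-07). LIG3, the ligase that closes the nicks, had 29.7, 29.5 and 29.2 CPM in the AIL samples, against 34.4, 35.1 and 36.2 CPM in the DMSO samples. All AIL samples were lower (log2 difference -0.25, SE 0.0403, limma adjusted p = 5.31e-05). RFFL, one of the genes that overlap 30.5% of the exon bases of LIG3 on the other strand, rose (log2 difference 0.14).

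The other 3 genes of this pathway did not pass. XRCC1, the scaffold that holds LIG3, had 23.8, 23.6 and 21.4 CPM in the AIL samples, against 21.1, 21.6 and 22.9 CPM in the DMSO samples, with AIL replicate 3 inside the DMSO range (log2 difference 0.065, 95% interval -0.046 to 0.18; limma adjusted p = 0.311). UNG, which removes uracil, had 94.2, 89.1 and 92.9 CPM in the AIL samples, against 96.9, 95.1 and 95 CPM in the DMSO samples, a narrow gap without overlap (log2 difference -0.055, 95% interval -0.12 to 0.009; limma adjusted p = 0.137). APEX1, which cuts the strand at the emptied site, had 127, 132 and 130.1 CPM in the AIL samples, against 134, 133 and 133 CPM in the DMSO samples. The highest AIL sample lay just below the lowest DMSO sample (log2 difference -0.043, 95% interval -0.10 to 0.015; limma adjusted p = 0.196).

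All 4 nucleotide excision genes were called, 2 higher and 2 lower. ERCC4 (XPF) and ERCC1 are the subunits of the nuclease that cuts on the 5′ side of a lesion, and their transcripts moved apart. ERCC4 had 33.2, 33.1 and 33.3 CPM in the AIL samples, against 23.5, 24.7 and 23.7 CPM in the DMSO samples, the greatest rise of the 52 genes. The AIL samples were nearly equal and far above the DMSO samples (log2 difference 0.46, SE 0.0421, limma adjusted p = 9.58e-08). ERCC1 had 175, 176 and 162 CPM in the AIL samples, against 193, 196 and 191 CPM in the DMSO samples. All AIL values were lower, AIL replicate 3 the lowest (log2 difference -0.18, SE 0.0315, limma adjusted p = 1.33e-04). Both are overlapped on the other strand, ERCC4 over 25.7% of its exon bases by a gene not analysed here and ERCC1 over 28.6% by CD3EAP, which rose (log2 difference 0.11).

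ERCC2 (XPD) and ERCC3 (XPB) are the helicases of the transcription factor TFIIH, which opens the DNA around the lesion. ERCC2 had 70.8, 67.9 and 64.2 CPM in the AIL samples, against 62, 59.9 and 58.3 CPM in the DMSO samples. The groups did not overlap (log2 difference 0.17, SE 0.0386, limma adjusted p = 0.00139). ERCC3 had 86.2, 86.7 and 82.4 CPM in the AIL samples, against 90.2, 91.6 and 89.5 CPM in the DMSO samples. The 3 AIL samples were all lower (log2 difference -0.087, SE 0.0309, limma adjusted p = 0.0243). The call was lost with quantile normalization (adjusted p = 0.0839) or no intensity trend (adjusted p = 0.0636), and without AIL replicate 3 (adjusted p = 0.0729), DMSO replicate 1 (adjusted p = 0.059) or DMSO replicate 2 (adjusted p = 0.0985).

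ATRX and DAXX together place histone H3.3 at telomeres and other repeats, and both transcripts rose. DAXX had 73.4, 73.7 and 67.5 CPM in the AIL samples, against 59.6, 58 and 60.0 CPM in the DMSO samples. The groups did not overlap, and AIL replicate 3 was the lowest of its group (log2 difference 0.27, SE 0.0374, limma adjusted p = 1.19e-05). Of its exon bases, 14.3% are shared with another gene on the same strand. ATRX had 137, 140.2 and 144 CPM in the AIL samples, against 125, 131 and 128 CPM in the DMSO samples, again without overlap (log2 difference 0.13, SE 0.030, limma adjusted p = 0.00131).

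The proteins of 12 gene pairs above are partners in a complex, and the ratio of their CPM within a library does not change when all genes of that library are scaled by 1 factor (quantile normalization can change it). A ratio of CPM also depends on the lengths of the transcripts and is not a ratio of molecules. The pairs were chosen after the values were seen, and an exact two-sided permutation test of 3 against 3 samples cannot go below p = 0.10, or 0.17 after adjustment over the 12 pairs. The ratio did not overlap between the groups for 7 of the 12 pairs. Among single genes, 60.1% of all tested did not overlap, and the share over other gene pairs was not computed. ERCC4 over ERCC1 was 0.19, 0.189 and 0.206 in the AIL samples, against 0.122, 0.126 and 0.124 in the DMSO samples. That is a log2 difference of 0.65 between the groups (exact permutation p = 0.10), the widest of the 12.

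MRE11A over RAD50 was 0.50, 0.499 and 0.516 in the AIL samples, against 0.631, 0.629 and 0.609 in the DMSO samples, a log2 difference of -0.30 (exact permutation p = 0.10). LIG3 over XRCC1 was 1.25, 1.25 and 1.37 in the AIL samples, against 1.63, 1.62 and 1.58 in the DMSO samples, a log2 difference of -0.33 (exact permutation p = 0.10). In both, all AIL ratios were lower. BRCA2 over PALB2 and FANCD2 over FANCI differed by -0.23 and -0.16 on the log2 scale, and XRCC4 over LIG4 and XRCC3 over RAD51C by 0.24 and 0.20, each without overlap (exact permutation p = 0.10).

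The other 5 ratios overlapped. XRCC5 over XRCC6 was 1.18, 1.19 and 1.21 in the AIL samples, against 1.22, 1.21 and 1.2 in the DMSO samples (log2 difference -0.020, exact permutation p = 0.30). The ratios of the Ku pair lay close together in all 6 samples. NBN over RAD50, ATR over ATRIP, BRCA1 over BARD1 and DAXX over ATRX differed by 0.005, -0.031, 0.059 and 0.14 on the log2 scale (exact permutation p = 0.80, 0.60, 0.40 and 0.30). Whether samples of the same number belong together was not tested. Between them, BRCA1 over BARD1 was higher under AIL in 3 of 3 pairs, by 0.050 to 0.076. Each of the other 4 ratios went both ways. With 3 pairs an exact sign-flip test cannot go below p = 0.25, which is its value for BRCA1 over BARD1.

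**Figure D3:**
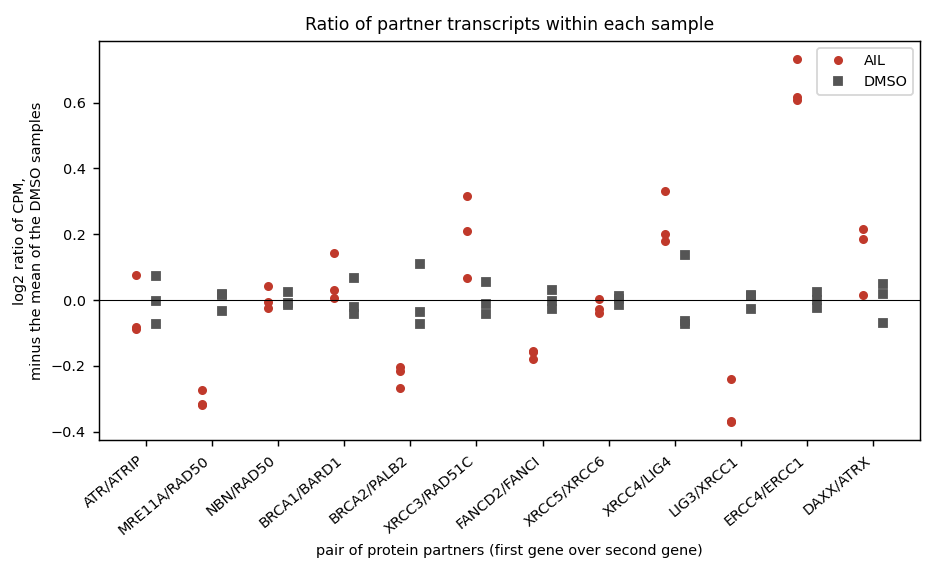
Log2 ratio of the CPM of 2 protein partners in each sample, minus the mean of the DMSO samples, for 12 pairs (circles AIL, squares DMSO). ERCC4 over ERCC1 is higher in all 3 AIL samples, MRE11A over RAD50 and LIG3 over XRCC1 are lower, and the groups overlap for pairs such as XRCC5 over XRCC6.

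Other genes of the same pathways, 105 in all, were taken by textbook membership. Their median log2 difference was -0.030, with 35 falls and 20 rises. That is 33.3% lower, 19% higher and 52.4% called in all, against 25.9%, 28.2% and 54.1% of all tested genes. In checkpoint signalling 9 of 17 fell and 2 rose. CLSPN, the adaptor between ATR and CHEK1, averaged 97.6 ± 1.64 CPM under AIL and 119 ± 1.57 CPM under DMSO (log2 difference -0.29, SE 0.0284, limma adjusted p = 2.22e-07), WEE1, which restrains entry into mitosis, fell by 0.35 on the log2 scale, and TIMELESS, which stabilises forks, fell by 0.31. In homologous recombination 10 of 22 fell and 2 rose. RPA1, the large subunit of the protein that coats single-stranded DNA, averaged 106 ± 2.34 CPM under AIL and 137 ± 4.4 CPM under DMSO (log2 difference -0.37, SE 0.0308, limma adjusted p = 2.69e-08), and the helicase genes RECQL4 and RECQL fell by 0.44 and 0.29.

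In the Fanconi pathway 2 of 11 other genes fell and 2 rose. The core complex gene FANCF averaged 24.6 ± 0.561 CPM under AIL and 18.2 ± 0.535 CPM under DMSO, a rise (log2 difference 0.42, SE 0.0474, limma adjusted p = 1.10e-06). UBE2T, the ubiquitin-conjugating enzyme that works with FANCL, fell by 0.31, and STRA13, a partner of FANCM, by 0.30. In end joining 1 of 8 fell and 0 rose. That gene, POLQ, the polymerase of an alternative form of end joining, averaged 67.8 ± 2.95 CPM under AIL and 82.3 ± 1.8 CPM under DMSO (log2 difference -0.28, SE 0.0353, limma adjusted p = 4.55e-06). In mismatch repair 2 of 5 fell and 2 rose, among them PMS1 (-0.18) and MLH3 (0.16).

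In base excision and single-strand break repair 6 of 17 other genes fell and 4 rose. The flap nuclease gene FEN1 fell by 0.23 and TDP1, which removes trapped topoisomerase, by 0.27, while the repair polymerase gene POLB rose (0.31). In nucleotide excision repair 7 of 17 rose and 2 fell. RAD23B, part of the complex that finds lesions, averaged 402 ± 7.14 CPM under AIL and 285 ± 1.8 CPM under DMSO (log2 difference 0.49, SE 0.0244, limma adjusted p = 5.98e-11), and the TFIIH genes GTF2H1 and GTF2H5 rose by 0.36 and 0.25. Around ATRX and DAXX, 3 of 8 fell and 1 rose. Both histone H3.3 genes changed, in opposite directions: H3F3A averaged 95.7 ± 2.38 CPM under AIL and 161 ± 2.79 CPM under DMSO (log2 difference -0.74, SE 0.029, limma adjusted p = 4.20e-12), and H3F3B 609 ± 16.2 CPM under AIL and 499 ± 4.07 CPM under DMSO (log2 difference 0.28, SE 0.0253, limma adjusted p = 5.98e-08). These 2 genes have many processed copies in the genome, so their counts are uncertain. The histone chaperone gene ASF1B fell by 0.26.

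**Figure D4:**
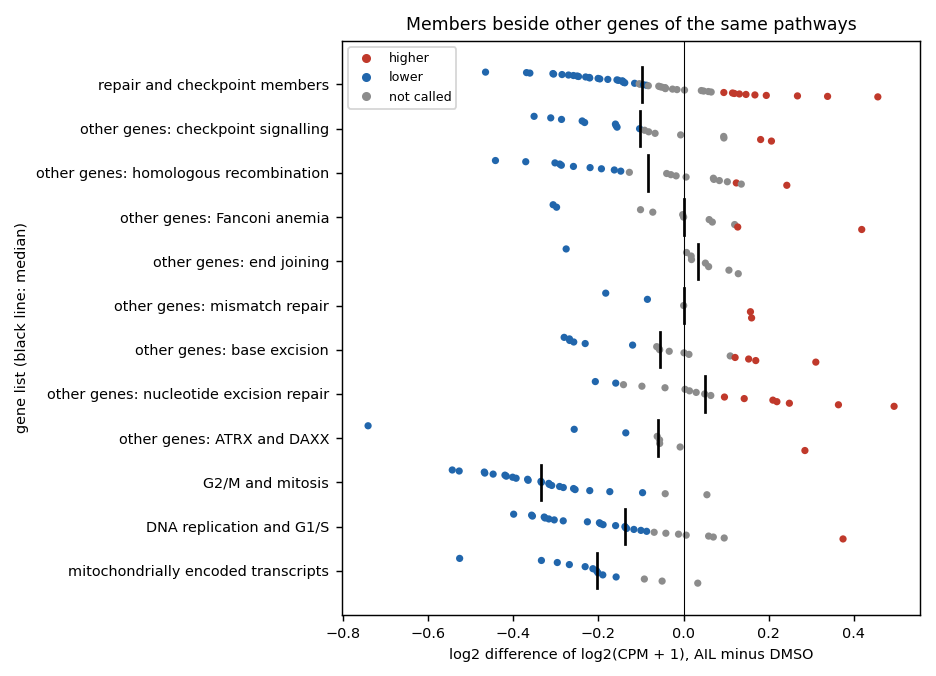
Log2 difference of log2(CPM + 1), AIL minus DMSO, for the 52 genes (top row), for other genes of the same pathways and for lists of mitosis, DNA replication and mitochondrially encoded genes (points, coloured by call; black lines, medians). The median of the 52 genes is -0.098, that of the mitosis list -0.33 and that of the other nucleotide excision genes 0.050.

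Cell cycle genes moved in the same libraries. Of 25 genes of G2/M and mitosis, 23 fell and 0 rose (median log2 difference -0.33), and their summed level was 5266 to 5474 CPM in the AIL samples, against 6768 to 7010 CPM in the DMSO samples. Of 27 tested genes of DNA replication and G1/S, 19 fell and 1 rose (median -0.14), with sums of 3481 to 3522 CPM under AIL and 3900 to 3974 CPM under DMSO. Of 13 transcripts of the mitochondrial genome, read as a sign of RNA quality, 10 fell and 0 rose (median -0.20), with sums of 3601 to 3726 CPM under AIL and 4205 to 4374 CPM under DMSO. Their part in the lower repair genes was not tested, and in bulk RNA fewer cells in a phase of the cycle and less RNA per cell cannot be told apart.

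Transcript length and GC content were also set beside the differences. Across the 52 genes the log2 difference had a Spearman correlation of -0.16 with the length of the longest protein-coding transcript and 0.27 with its GC content, and across 10489 tested genes with a length these were -0.14 and 0.14. Genes share libraries and are not independent, so no test is given. The genes that fell had a median length of 4981 bases, those that rose 3942 bases and those not called 3738 bases. All tested genes with a length had a median of 3509 bases. In the same order, median GC content was 41.6%, 44.7% and 48.4%, against 47.9% for all tested genes with a length.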

How the data were processed

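RNA was sequenced from TruSeq libraries, per the labels' protocols, and the submitters' processing notes name RSEM and edgeR 3.8.5. The deposited values are CPM to 2 decimals, described per the file headers as TMM-normalized, for 13439 genes. No source used here names an aligner, a genome build or a strand setting. The smallest steps in CPM gave a scaled depth of 35910000 to 38050000 reads in AIL samples and 32540000 to 35830000 in DMSO samples. Values of up to 2000 reads stood within 0.2 reads of whole reads in 99.95 to 99.98% of cases and within 0.1 reads in 52.5 to 65.1%. Rounding to 2 decimals lowers the second share. As the values are TMM-normalized CPM, no count test was run. For this report, limma 3.58.1 (R 4.3.3, empirical Bayes with an intensity trend, two-sided) was fitted to log2(CPM + 1) over the 11069 genes averaging 1 CPM or more, with Benjamini-Hochberg adjustment over all of them and a threshold of 0.05. The script was tested on simulated data. The members and lists were chosen with earlier results of these data known. All 52 genes are named, with values per sample for the 4 of each pathway with the largest called differences, for those not called and, chosen after their values were seen, for CHEK1 and XRCC3, and of the other lists up to 3 genes with the smallest p, apart from a gene that is not reported here. Deviations from the group means correlated weakly between same-numbered AIL and DMSO samples (0.159, 0.133 and 0.129, against -0.179 to 0.021 for unlike numbers). Within a gene the deviations of a group cancel, so positive values for like numbers push those for unlike numbers down. Whether the numbers pair the samples was not tested, and the labels give only the numbers. Alternatives were other pseudocounts, filters, scalings, no intensity trend, the replicate block and leaving out each sample. Transcript overlap was read from GENCODE v29 and promoters from RefSeq (GRCh38.p14).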

Additional observations from a re-analysis of the deposited data

How the results depend on the processing

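The 10 rises and 26 falls among the 52 genes became 7 to 11 rises and 24 to 28 falls over the 14 alternatives, and 28 of the 36 calls held under each of them. With quantile normalization the end joining rises dropped to 1 and XRCC5 reversed to -0.0391, without a call. Nucleotide excision falls were 1 with quantile normalization and 1 with no intensity trend. RAD51C, not called, reversed to -0.0053 with median-of-ratios scaling and to -0.0079 with quantile normalization. The cause was not tested. Leaving out 1 replicate at a time gave 0 to 1 checkpoint rises, 1 to 2 recombination rises, 0 to 1 end joining falls, 1 to 2 nucleotide excision falls, -0.0189 to 0.0259 for RAD51C and -0.0545 to 0.0178 for FANCE. With the replicate number as a block, 10 of the 52 genes rose and 28 fell, end joining falls were 1, FANCG and LIG4 were gained, and the block changed no other call. Leave-outs of the 12 partner ratios and their values within same-numbered samples were added after seeing the data. The leave-outs gave 0.610 to 0.674 for ERCC4 over ERCC1 and -0.014 to 0.020 for NBN over RAD50. Sequencing depth, 3 samples a group and 1 dose and time limit what can be seen.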
